A study of Mus musculus with 28 samples.

Results

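Nuclear receptors are transcription factors that share a zinc-finger DNA-binding domain and, in most members, a pocket for a small lipid-soluble ligand such as a steroid, a retinoid, thyroid hormone, a bile acid or an oxysterol. They bind copies of the sequence AGGTCA or close variants of it. Steroid receptors bind as pairs of identical subunits, many metabolic receptors pair with a retinoid X receptor (RXR), and several orphan members bind alone. Hnf4a and Hnf4g belong to this superfamily and act in gut and liver, and they were the genes altered in this study. The 44 genes described here are the remaining nuclear receptors on a fixed list of gene symbols, that is, the superfamily without Hnf4a and Hnf4g. All 44 were found by symbol among the 55011 symbols of the count table.

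The samples were bulk RNA libraries of medullary thymic epithelial cells (mTEC), the thymic cells that express genes of peripheral tissues and so expose developing T cells to them. All mice were C57BL/6, and no ages are stated in the labels. In wild-type mice, a sorted subset named entero-hepato mTEC (3 libraries) was set against the non-entero-hepato mTEC (3 libraries). The other 6 groups all carried a heterozygous Foxn1cre transgene, which directs Cre recombinase to thymic epithelium, and these groups came from post-Aire mTEClo or from mTEChi. In mTEClo there were 4 control libraries, Hnf4a(fl/+)Hnf4g(+/-), whose mice therefore retained 1 intact allele of each gene and carried Cre. Removal of Hnf4g is written Hnf4a(fl/+)Hnf4g(-/-) (3 libraries), and removal of Hnf4a is written Hnf4a(fl/fl)Hnf4g(+/-) (3 libraries). The double mutant, Hnf4a(fl/fl)Hnf4g(-/-), had 4 libraries in mTEClo and 4 in mTEChi, and mTEChi had 4 libraries of the same control genotype. Only Hnf4a is marked as floxed in the labels, so only its removal depends on Cre. The titles number the libraries of a group as Thy#, but the labels do not say whether these came from separate mice. Every p-value therefore sets a difference against the spread between libraries, estimated over all groups of its fit.

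Each library was made from 1000 sorted cells after removal of CD45+ cells and held 4330120 to 8342583 counts assigned to genes. The summed level of 12 mTEC identity genes was 24550 to 27720 CPM (the usual read count normalised to library size) in the entero-hepato libraries, 14210 to 14800 in the non-entero-hepato libraries, 7369 to 10160 in mTEClo controls and 24840 to 25740 in mTEChi controls, and none of the 12 lacked reads in these groups. Of these 12, H2-Ab1 alone was at 18490 to 20280 CPM in the entero-hepato libraries and 7735 to 8314 CPM in the non-entero-hepato libraries. It was at 3044 to 5423 CPM in control mTEClo and 19440 to 20700 CPM in control mTEChi. Between the gates, 7 of the 12 were called higher in the entero-hepato cells and 4 lower. Krt5 was at 86.5 to 127 against 1278 to 1582 CPM there, and Aire at 669 to 1089 against 1609 to 1719 CPM. The epithelial gene Epcam lay between 638 and 2239 CPM over all groups. Hnf4a was at 31.1 to 67.2 CPM in the entero-hepato and 5.45 to 6.31 CPM in the non-entero-hepato libraries, and Hnf4g was at 124 to 183 and 17.6 to 21 CPM. Hnf4a was at 1.01 to 7.39 CPM over the mTEClo and mTEChi libraries of all genotypes. Hnf4g was at 9.002 to 15.6 CPM in control and 3.19 to 8.30 CPM in double-mutant mTEClo, and at 15.3 to 22.4 and 5.19 to 12.8 CPM in mTEChi. The labels do not say which parts of these genes the mutant alleles lack, so their total counts do not check the genotype. CPM values below are scaled over all 28 libraries by trimmed mean of M values (TMM), fold changes and their standard errors (SE) come from edgeR's quasi-likelihood fit of each comparison, and a gene is called when its Benjamini-Hochberg adjusted p over all genes tested was under 0.05.

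Because many members bind AGGTCA themselves, the 250 bases before the annotated transcript starts were searched for it on both strands (TGACCT is its reverse complement). RefSeq windows on GRCm38.p6 existed for 41 of the 44 receptors, in 61 windows, and 11 of these windows (18.0%) held the 6 letters, against 14.02% of all 32851 windows. The windows with a match belonged to Nr0b1, Nr1d2, Nr1h4, Nr5a2, Nr6a1, Pparg, Rarg, Rxra, Rxrg and Thrb. Of the 13 receptors with a window that were called higher in the entero-hepato cells, Rxra and Thrb held a match, and of the 3 called lower, Rarg did. The longer letters AGGTCANAGGTCA, a direct repeat with a 1-base gap whose every match contains AGGTCA matches, were in 0.0335% of all windows and in no receptor window, and CAAAGTCCA, a core form of the HNF4 motif, was in 0.384% of all windows and in no receptor window. A match describes letters only. The windows of Vdr and Nr1d1, 2 of the receptors with the largest increases in the entero-hepato cells, are shown first. The matching windows of Rxra, Thrb and Rarg follow, with each AGGTCA or TGACCT in capitals. They are written 5′ to 3′ on the gene's strand. They cover chr15:97908297-97908546 (minus strand) for Vdr, chr11:98775378-98775627 (minus) for Nr1d1, chr2:27709042-27709291 (plus) for Rxra, chr14:17660710-17660959 (plus) for Thrb and chr15:102257523-102257772 (minus) for Rarg.
Vdr: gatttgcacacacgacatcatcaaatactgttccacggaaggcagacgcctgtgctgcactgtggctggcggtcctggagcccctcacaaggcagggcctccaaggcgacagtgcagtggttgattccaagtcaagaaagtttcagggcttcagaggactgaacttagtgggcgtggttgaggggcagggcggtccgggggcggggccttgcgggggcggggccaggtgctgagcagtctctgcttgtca
Nr1d1: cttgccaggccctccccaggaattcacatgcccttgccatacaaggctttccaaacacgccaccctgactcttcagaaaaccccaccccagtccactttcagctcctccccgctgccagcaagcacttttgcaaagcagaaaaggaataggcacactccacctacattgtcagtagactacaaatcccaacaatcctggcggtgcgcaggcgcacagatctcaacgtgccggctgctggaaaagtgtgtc
Rxra: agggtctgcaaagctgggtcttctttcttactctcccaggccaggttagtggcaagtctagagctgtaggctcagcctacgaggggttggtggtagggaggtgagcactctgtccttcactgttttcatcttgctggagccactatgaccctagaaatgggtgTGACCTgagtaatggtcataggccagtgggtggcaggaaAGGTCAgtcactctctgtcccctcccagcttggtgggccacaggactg
Thrb: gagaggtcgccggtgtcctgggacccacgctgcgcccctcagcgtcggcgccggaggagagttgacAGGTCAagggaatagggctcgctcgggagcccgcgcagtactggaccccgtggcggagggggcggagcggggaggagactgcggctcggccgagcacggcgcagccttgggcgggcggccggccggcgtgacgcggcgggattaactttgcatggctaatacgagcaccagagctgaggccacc
Rarg: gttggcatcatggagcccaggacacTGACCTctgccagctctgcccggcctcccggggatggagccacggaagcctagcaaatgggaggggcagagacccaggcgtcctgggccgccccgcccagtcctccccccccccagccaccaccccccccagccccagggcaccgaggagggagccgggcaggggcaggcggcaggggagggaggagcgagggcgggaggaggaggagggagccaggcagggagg
The Rxra window shown holds TGACCT from 87 bases and AGGTCA from 48 bases before its start. The Thrb window shown holds AGGTCA from 184 bases before its start, and the Rarg window shown holds TGACCT from 225 bases before its start. The Vdr and Nr1d1 windows hold neither. Rxra, Thrb and Rarg each have 2 windows, and the one not shown holds no match. For Rxra, the window not shown (chr2:27676951-27677200) belongs to the more upstream start.

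Receptor transcripts were widespread in these cells. Of the 44, 32 had at least 1 read in every library, 29 had a mean of at least 1 CPM in every group and 14 had at least 10 CPM in every group. In at least 1 group, 42 reached 1 CPM and 28 reached 10 CPM. Nr1i3, the xenobiotic receptor CAR, and Nr2e1, a receptor known from neural stem cells, stayed under 1 CPM in every group.

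Levels between genes were compared as CPM per kilobase of exon (CPM/kb). In the entero-hepato cells the order began with Vdr (the vitamin D receptor, 93.0 ± 6.95 CPM/kb, SD, n = 3), Nr1h2 (the oxysterol receptor LXR-beta, 41.9 ± 1.94), Nr1d1 (the clock repressor REV-ERB-alpha, 27.4 ± 5.21), Nr1h3 (LXR-alpha, 19.4 ± 2.93) and Esrrg (an estrogen-related orphan receptor, 15.8 ± 0.201). None of these 5 overlapped the next in the order over the libraries. The non-entero-hepato cells had Nr1h2 first at 28.3 CPM/kb, Vdr next at 22.1 and then Nr4a1, an immediate-early orphan receptor, at 15.5. In control mTEClo the order began with Nr1h2 at 34.5 CPM/kb and Nr4a1 at 31.2, ahead of Vdr at 18.7. Control mTEChi began with Vdr at 31.6 CPM/kb and Nr1h2 at 24.4. Double-mutant mTEChi had Nr1h2 at 24.7 and Vdr at 22.7 CPM/kb, and these 2 overlapped. Vdr and Nr1h2 were thus within the first 3 of the order in every group.

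**Figure D1:**
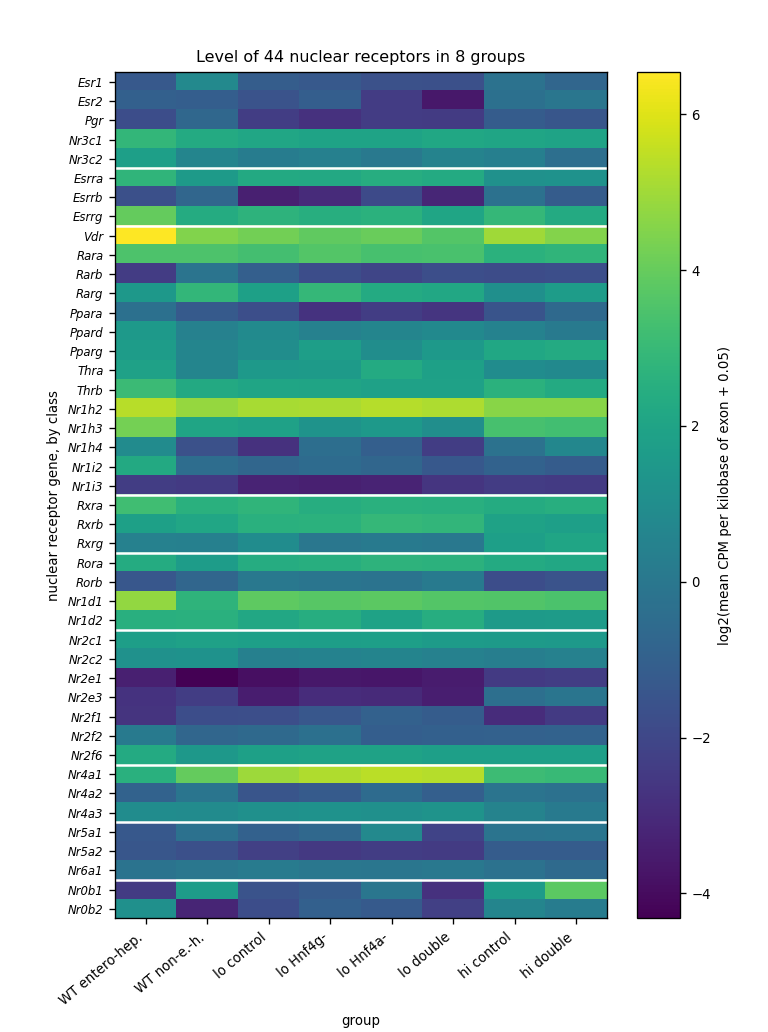
Mean level of the 44 receptors (one row each, grouped by class) in the 8 groups (columns), coloured by log2 of the mean CPM per kilobase of exon plus 0.05. Vdr and Nr1h2 are bright in every column, and Nr1i3 and Nr2e1 are dark in every column.

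The wild-type comparison asked how the entero-hepato mTEC differ from the non-entero-hepato mTEC. Of the 34 receptors with enough counts to be tested, 15 were higher in the entero-hepato cells, 3 were lower and 16 were not called, so 52.9% were called against 44.5% of the 16811 genes tested (7479 genes). Higher calls made up 44.1% of the receptors and 22.7% of all genes, and lower calls made up 8.82% and 21.8%. The median log2 fold change was 0.56 over the tested receptors and -0.05 over all genes. Libraries of the gates did not overlap for 17 of the 34 receptors and 4700 of the 16811 genes on the higher side. On the lower side this held for 6 receptors and 4797 genes, so a lack of overlap was common between the gates. In these bulk libraries fewer cells of a type and less RNA per cell cannot be told apart.

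Scaling bears on the split. TMM factors were 0.78 to 0.84 in the entero-hepato and 1.05 to 1.07 in the non-entero-hepato libraries. With library totals alone the median of all genes moved to -0.41, and 10 receptors were higher and 7 lower. Nr1h2, Nr2f6, Nr3c1, Rora and Rxra were then not called, and Esrrb, Pgr, Rarb and Rxrb were called lower. With upper-quartile scaling the median was -0.20 and the split was 13 higher and 4 lower. These splits are given without the matching shares of all genes, so they do not show whether the receptor excess of higher calls remained. In every alternative run, 13 of the 18 calls remained, namely Vdr, Nr1h3, Nr1i2, Ppard, Thra, Thrb, Esrrg, Esrra, Nr1d1, Nr3c2, Esr1, Rarg and Nr4a1.

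**Figure D2:**
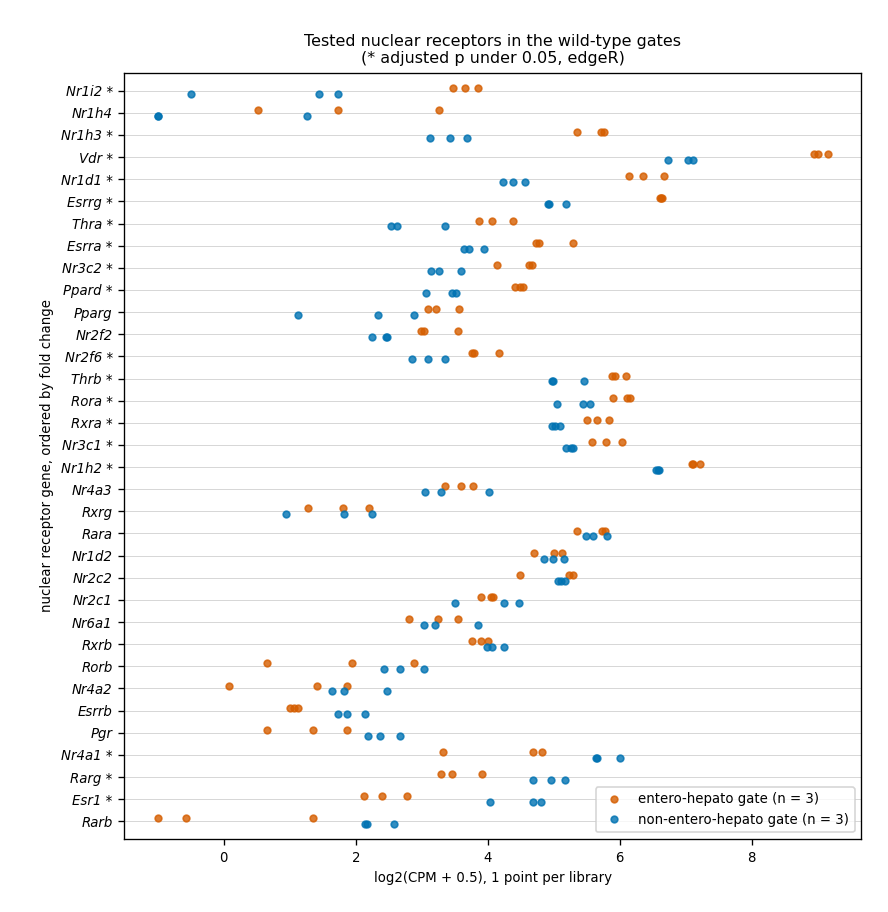
Level of each of the 34 tested receptors in the 6 wild-type libraries, as log2(CPM + 0.5), with entero-hepato and non-entero-hepato libraries in 2 colours and an asterisk for a call. The widest separated upward gaps belong to Nr1i2, Nr1h3, Vdr and Nr1d1, and Esr1 is separated in the opposite direction.

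Among the ligand-bound receptors that pair with RXR, 7 of 12 tested were higher and 1 was lower. Vdr (chromosome 15, 97854425 to 97910630 of mm10, minus strand), which binds active vitamin D and controls intestinal calcium uptake, was at 569, 493 and 514 CPM in the entero-hepato libraries and at 106, 131 and 138 CPM in the others. All 3 entero-hepato libraries stood far above the rest. The log2 fold change was 2.06 (SE 0.12, edgeR adjusted p = 4.43e-06). Nr1h3 (chromosome 2, 91184061 to 91202834, minus strand), which senses oxysterols and drives cholesterol export and fatty acid synthesis, was at 54.0, 40.5 and 52.2 CPM against 8.23, 10.2 and 12.3 CPM. Those groups too were apart, with a log2 fold change of 2.23 (SE 0.21, edgeR adjusted p = 5.18e-05).

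The pregnane X receptor Nr1i2 (chromosome 16, 38248323 to 38294824, minus strand), which induces drug-metabolising enzymes in liver and gut, was at 13.99, 10.6 and 12.1 CPM (191 reads) against 0.211, 2.83 and 2.22 CPM (25 reads). Its log2 fold change, 2.77 (SE 0.63, edgeR adjusted p = 0.00671), was the highest among called receptors, and its SE was the largest among them. Ppard, a fatty acid sensor, was at 21.8 ± 0.857 CPM (SD, n = 3) against 9.77 ± 1.70, a log2 fold change of 1.14 (edgeR adjusted p = 0.00347). For the thyroid hormone receptors, Thra was at 16.9 ± 3.25 against 6.88 ± 2.45 CPM (log2 1.27, SE 0.33, edgeR adjusted p = 0.0121) and Thrb at 62.2 ± 5.15 against 35.2 ± 7.33 CPM (log2 0.80, SE 0.16, edgeR adjusted p = 0.00396). Both thyroid hormone receptors therefore rose. The 3′ end of Thra (chromosome 11, 98740638 to 98769006, plus strand) overlaps Nr1d1 on the other strand, and as the library kit does not mark strand, reads in that overlap cannot be told apart. Nr1h2 rose least in this class, from 94.9 ± 1.95 to 140 ± 6.5 CPM (log2 0.55, SE 0.09, edgeR adjusted p = 0.00120).

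The 1 lower member of the class was a retinoic acid receptor. Rarg (chromosome 15, 102234938 to 102257517, minus strand), known from skin and cartilage, was at 9.26, 14.5 and 10.5 CPM in the entero-hepato libraries and at 25.1, 35.7 and 30.7 CPM in the others. It fell by 1.42 on the log2 scale (SE 0.24, edgeR adjusted p = 0.00159). Rara, the broadly expressed form, was at 49.1 against 49.3 CPM (log2 -0.02, SE 0.16) and was not called. Rarb had 12 against 64 reads and groups that did not overlap, with an edgeR adjusted p of 0.0533. It was called lower by DESeq2 and by limma-voom. Rarb overlaps the gene Top2b on the opposite strand. Pparg, the regulator of fat cell formation, was at 9.43 against 4.37 CPM without overlap (edgeR adjusted p = 0.106), and the bile acid receptor Nr1h4 (FXR) was at 4.26 ± 4.24 against 0.633 CPM with overlap (edgeR adjusted p = 0.112). Ppara had too few reads to be tested, with 44 against 20.

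Of the RXRs themselves, the shared partners of that class, Rxra rose from 32.1 ± 1.34 to 50.3 ± 5.83 CPM (log2 0.63, SE 0.14, edgeR adjusted p = 0.00558). Rxrb was not called at 14.3 against 16.7 CPM (log2 -0.24), nor was Rxrg (log2 0.05).

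Steroid receptors split by member. Esr1 (chromosome 10, 4611593 to 5005614, plus strand), the estrogen receptor alpha, was at 3.87, 6.34 and 4.74 CPM in the entero-hepato libraries and at 15.8, 25.2 and 27.5 CPM in the others. The groups lay apart, and Esr1 fell by 2.20 on the log2 scale (SE 0.32, edgeR adjusted p = 0.000666). The mineralocorticoid receptor Nr3c2, which controls sodium uptake in kidney and colon, was instead higher, at 25.0, 17.2 and 24.3 CPM against 9.08, 11.5 and 8.28 CPM (log2 1.18, SE 0.25, edgeR adjusted p = 0.00508). The glucocorticoid receptor Nr3c1 was at 55.7 ± 9.04 against 37.4 ± 1.51 CPM (log2 0.56, edgeR adjusted p = 0.0160), a call that was lost without non-entero-hepato library 3. The progesterone receptor Pgr was not called (log2 -1.20, edgeR adjusted p = 0.0836).

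The estrogen-related receptors, orphans known for control of mitochondrial and oxidative genes, had 2 of 3 members higher. Esrrg (chromosome 1, 187608791 to 188214885, plus strand) was at 99.4, 97.0 and 98.4 CPM against 29.97, 29.6 and 35.8 CPM, a narrow spread within each gate and a log2 fold change of 1.61 (SE 0.12, edgeR adjusted p = 1.56e-05). Esrra was at 38.5, 26.9 and 26.0 CPM against 12.7, 11.96 and 14.95 CPM (log2 1.19, SE 0.22, edgeR adjusted p = 0.00243). It overlaps Trmt112 on the opposite strand. Esrrb was not called (log2 -1.06, edgeR adjusted p = 0.0861).

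Among the clock-linked receptors, 2 of 4 rose. Nr1d1 (chromosome 11, 98767932 to 98775333, minus strand), a repressor of Bmal1 transcription, was at 102, 70.3 and 80.8 CPM against 20.5, 18.3 and 23.2 CPM (log2 2.01, SE 0.17, edgeR adjusted p = 3.10e-05). Its relative Nr1d2 was at 30.5 against 31.6 CPM (log2 -0.07) and was not called, so the 2 REV-ERB genes had unlike values. Rora, the activator that binds the same elements, was at 66.1 ± 6.02 against 40.7 ± 7.25 CPM (log2 0.68, SE 0.16, edgeR adjusted p = 0.00740).

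Of the testable orphans of the NR2 group, 1 of 4 was called: Nr2f6, a COUP-family repressor, was at 14.6 ± 2.52 against 8.18 ± 1.49 CPM (log2 0.82, edgeR adjusted p = 0.0428). That call was lost when any 1 of 5 of the 6 libraries was left out, and Nr2f6 overlaps Ocel1 on the opposite strand. The testicular receptors Nr2c1 (15.6 against 17.1 CPM, log2 -0.15) and Nr2c2 (32.6 against 34.2 CPM, log2 -0.09) were not called. The NR4A genes are immediate-early genes that respond to many stimuli, T cell receptor signals among them. Of these, Nr4a1 (chromosome 15, 101254269 to 101274795, plus strand) was at 27.8, 9.51 and 25.3 CPM in the entero-hepato libraries and at 49.6, 49.8 and 63.6 CPM in the others, and it fell by 1.40 on the log2 scale (SE 0.33, edgeR adjusted p = 0.00836). Nr4a2 and Nr4a3 were not called.

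A further 10 receptors were too low to be tested between the gates. They include the DNA-binding-domain-lacking repressors of the NR0B group. Nr0b2 (SHP), a target of FXR in liver, was at 0.215, 4.10 and 2.99 CPM in the entero-hepato libraries (40 reads) and at 0, 0 and 0.202 CPM in the others (1 read). Nr0b1 (DAX1), known from adrenal and gonad, was at 0.215, 0 and 0.527 CPM (4 reads) against 0.211, 0.217 and 16.6 CPM (84 reads), so nearly all of its reads came from non-entero-hepato library 3. The other untested genes were Esr2, Ppara, Nr1i3, Nr2e1, Nr2e3, Nr2f1, Nr5a1 and Nr5a2.

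Genes linked to these receptors by textbook knowledge, held in 11 lists, differed between the gates in the following numbers. PPAR targets had 14 of 18 tested genes higher and 0 lower (median log2 1.44), among them Fabp4, a fatty acid carrier, at 664 against 113 CPM. PXR and CAR targets had 7 of 8 higher (median 3.83), with Ces2a, a carboxylesterase, at 609 ± 349 against 2.95 CPM and Cyp3a13, a drug-metabolising enzyme, at 464 ± 161 against 16.3 CPM. FXR and bile acid genes had 4 of 6 higher (median 2.17), including Slc51b, a subunit of the basolateral bile acid exporter, at 96.1 ± 8.76 against 1.40 ± 0.499 CPM. All of these lists hold genes that intestine or liver express.

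Vitamin D targets had 4 of 6 higher (median log2 1.93), with S100g, the calcium carrier of the duodenum, at 579 ± 22.9 against 80.1 ± 28.4 CPM and Atp2b1, a calcium export pump, at 545 ± 87.2 against 149 CPM. LXR targets had 6 of 10 higher and 1 lower (median 0.59), with the sterol exporters Abcg5 at 331 against 11.7 CPM and Abcg8 at 135 against 3.87 CPM. Thyroid hormone targets had 2 of 4 higher (median 0.57): the lipogenic enzyme Me1 was at 260 against 92.7 CPM and the deiodinase Dio1 at 573 against 219 CPM. The 6 lists named so far had no more than 1 lower member between them.

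The remaining 5 lists had medians nearer to that of all genes. Clock genes had 6 of 14 higher and 1 lower (median log2 0.36), with Nfil3 at 36.7 against 13.9 CPM and Bhlhe40 lower at 49.5 against 82.3 CPM. Retinoid genes had 5 higher and 5 lower of 17 (median 0.07), with the dehydrogenase Rdh7 higher at 94.8 ± 51.8 against 2.12 CPM and the retinol importer Stra6 lower at 101 against 159 CPM. Glucocorticoid targets had 2 higher and 2 lower of 9 (median 0.15), with Tsc22d3 at 266 against 137 CPM and Zbtb16 lower at 0.623 against 3.89 CPM. Coactivators had 4 higher and 3 lower of 12 (median 0.17), with Ncoa3 at 231 against 88.6 CPM, and corepressors had 3 of 9 higher and 0 lower (median 0.12), with Nrip1 at 33.4 against 16.2 CPM. The median over all genes was -0.05 on the same scale.

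Markers of other cell types and states moved with the gates as well. Enterocyte markers had 7 of 7 higher (summed 5748 to 8172 against 371 to 383 CPM), hepatocyte markers had 3 higher and 1 lower of 6 (1306 to 2691 against 73.5 to 89.5 CPM), and microfold markers had 8 of 8 higher (4220 to 5146 against 878 to 986 CPM). Tuft markers had 9 of 10 lower (146 to 348 against 2111 to 3093 CPM), proliferation genes had 8 of 8 lower (51.7 to 60.4 against 676 to 802 CPM), and ciliated cell markers had 4 of 5 lower (47.4 to 65.4 against 102 to 187 CPM). Myeloid markers were higher in 6 of 10 tested (1354 to 1688 against 475 to 668 CPM), and erythroid markers in 5 of 5 (173 to 253 against 16.8 to 27.2 CPM). Stress genes had 3 higher and 5 lower of 12 (2968 to 3081 against 3004 to 3403 CPM), and fibroblast markers had none called of 8. The part of these populations in the receptor differences was not tested.

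No receptor was called in any of the Hnf4 genotypes. In double-mutant against control mTEClo, 0 of 35 tested receptors passed, against 0.740% of 18775 genes (139 genes, 30 higher and 109 lower). At an unadjusted p under 0.05, 2 of 35 receptors (5.71%) and 12.3% of all genes were found by edgeR, while DESeq2 called 1 receptor and limma-voom none. In double-mutant against control mTEChi, 0 of 38 passed, against 0.635% of 18413 genes (117 genes, 7 higher and 110 lower). There, edgeR's unadjusted p was under 0.05 for 4 receptors (10.5%) and for 11.2% of all genes. DESeq2 made 3 receptor calls and limma-voom none. The median log2 fold change over the receptors was -0.04 in mTEClo, where that of all genes was 0.00, and -0.06 in mTEChi, where that of all genes was 0.01. The genes named from these comparisons other than the 5 most abundant were chosen after their values were seen.

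Vdr had the smallest unadjusted p of the receptors in both subsets. In mTEClo it was at 71.6, 80.0, 68.2 and 63.3 CPM in the double mutant and at 95.1, 96.4, 126.5 and 104 CPM in the control. The 4 mutant libraries lay below all 4 controls, as did 4.35% of all genes and 1 of the 35 receptors. The log2 fold change was -0.58 (SE 0.14, unadjusted p = 0.000694, edgeR adjusted p = 0.0676). Over the alternatives run, its log2 value lay between -0.64 and -0.48 and its adjusted p between 0.00161 and 0.204. The call was made by DESeq2 (adjusted p = 0.00669), and by edgeR without the low-count filter (0.00161) or with only the 2 groups in the fit (0.0255). It was also made by edgeR without library 1 of the control, Hnf4g-removed and Hnf4a-removed mTEClo groups (0.0442). That choice left out no double-mutant library, although their summed mTEC identity genes (6580 to 7030 CPM) lay below every control (7369 to 10160 CPM).

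In mTEChi, Vdr was at 110.2, 129.8, 129.2 and 144 CPM in the double mutant and at 171, 189, 194 and 159.5 CPM in the control. Again no mutant library reached a control, which held for 3 of 38 receptors (Vdr, Esrrg and Nr3c2) and 3.77% of all genes on the lower side. The log2 fold change was -0.47 (SE 0.12, edgeR adjusted p = 0.120), with adjusted p between 0.00961 and 0.317 over the alternatives run, the lowest of them from DESeq2. The difference between the 2 double-mutant effects on Vdr was 0.10 on the log2 scale (SE 0.16, edgeR adjusted p = 0.877).

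Esrrg had values of the same kind. In mTEClo it was at 26.6, 17.7, 31.6 and 25.8 CPM in the double mutant and at 28.5, 38.4, 47.8 and 45.6 CPM in the control, so 1 mutant library lay within the control range (log2 -0.66, SE 0.20, edgeR adjusted p = 0.175, and 0.0130 to 0.388 over the alternatives run). In mTEChi it was at 28.04, 35.1, 32.4 and 26.0 CPM against 55.1, 48.0, 37.2 and 44.8 CPM without overlap (log2 -0.60, SE 0.16, edgeR adjusted p = 0.168, and 0.0374 to 0.358 over the alternatives run). Nr0b1 had the opposite sign in mTEChi, at 14.3, 47.7, 30.2 and 7.34 CPM against 2.38, 6.37, 3.48 and 10.2 CPM. Its libraries varied widely within the double mutant and overlapped the control (log2 2.12, SE 0.56, edgeR adjusted p = 0.153, and 1.72e-07 to 0.371 over the alternatives run, the lowest without the low-count filter).

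The other most abundant receptors were not called either, and whether their levels were unchanged was not tested. In double-mutant mTEClo the log2 fold changes were 0.10 for Nr1h2 (edgeR adjusted p = 0.725), 0.38 for Nr4a1 (143 against 109 CPM, adjusted p = 0.448), 0.22 for Rora (adjusted p = 0.619) and 0.11 for Rara (adjusted p = 0.808). Nr1h3, which rose between the wild-type gates, was at 5.00 against 9.22 CPM (log2 -0.88, SE 0.43, edgeR adjusted p = 0.427). In double-mutant mTEChi they were 0.03 for Nr1h2, -0.11 for Rora and -0.30 for Thrb (edgeR adjusted p = 0.635). Nr3c2 was at 4.80 against 8.14 CPM there (log2 -0.75, SE 0.34, edgeR adjusted p = 0.441).

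**Figure D3:**
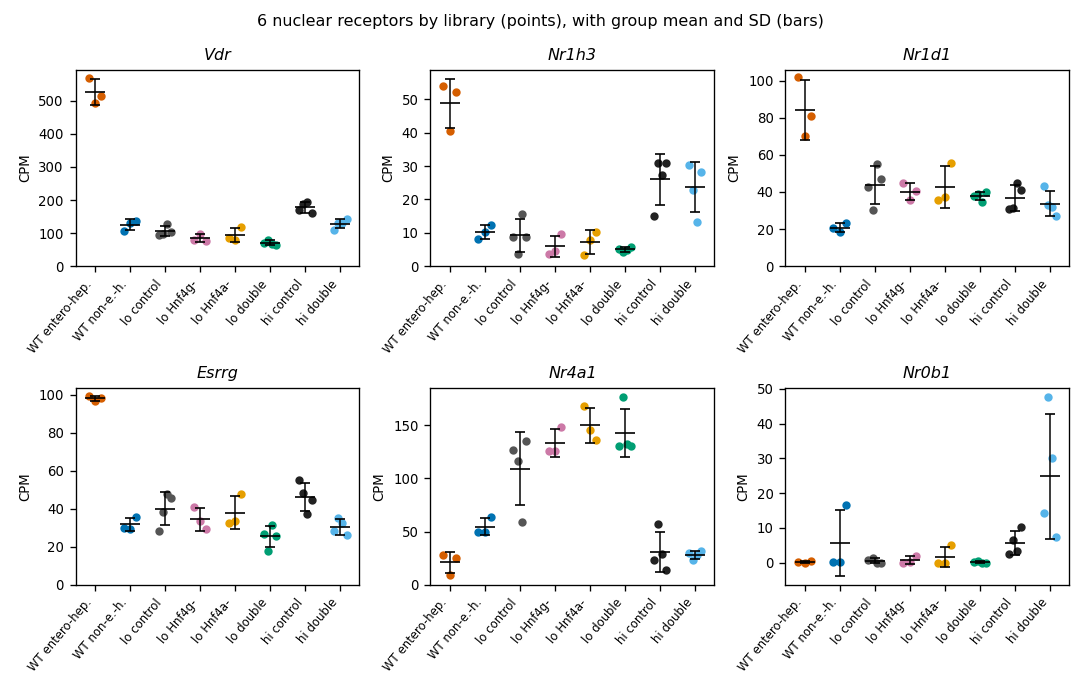
CPM of Vdr, Nr1h3, Nr1d1, Esrrg, Nr4a1 and Nr0b1 in every library of the 8 groups, with the mean and SD of each group (n = 3 or 4). Vdr stands between 493 and 569 CPM in the entero-hepato libraries, and in double-mutant mTEClo (63.3 to 80.0 CPM) it lies below the control (95.1 to 126.5 CPM).

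The single-gene genotypes in mTEClo had the same controls as the double mutant, so their values are given side by side and not as separate support. With Hnf4g removed, 0 of 35 receptors were called (0.0959% of all genes, 18 genes), 3 had an unadjusted p under 0.05 (8.57%, against 8.19% of all genes), DESeq2 called 1 and limma-voom none. With Hnf4a removed, 0 of 35 were called (0.00533% of all genes, 1 gene), 2 had an unadjusted p under 0.05 (5.71%, against 6.02%), and neither DESeq2 nor limma-voom called one. Vdr was at 83.9 ± 12.1 CPM (SD, n = 3) without Hnf4g, 94.6 ± 20.9 CPM (n = 3) without Hnf4a, 70.8 ± 7.02 CPM (n = 4) in the double mutant and 106 ± 14.6 CPM (n = 4) in the control.

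Rarg had the smallest p without Hnf4g, at 34.6, 32.4 and 27.3 CPM against 13.5, 20.1, 12.8 and 13.9 CPM in the control. The groups did not overlap (3.72% of all genes were apart in this direction, and 2 of the receptors), and the log2 fold change was 1.06 (SE 0.23, edgeR adjusted p = 0.123, with 0.00126 to 0.554 over the alternatives run). DESeq2 called it (adjusted p = 0.0074). Without Hnf4a, 4 of the 35 tested receptors lay above all controls (3.51% of all genes): Thra at 22.7 ± 4.82 against 13.5 ± 1.91 CPM (log2 0.74, edgeR adjusted p = 0.742), Nr4a1 at 150 against 109 CPM (log2 0.45, adjusted p = 0.830), Nr1h2 at 134 against 116 CPM (log2 0.20, adjusted p = 0.836) and Nr2f1 (log2 0.86). On the lower side Rarb alone was below all controls in each single-gene genotype (4.23% of all genes without Hnf4g and 3.37% without Hnf4a), with log2 values of -0.82 and -1.21 and edgeR adjusted p-values of 0.826 and 0.863.

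Between subsets, the difference of the 2 double-mutant effects was called for 0 of 42 receptors (0.0597% of all genes, 12 genes). An unadjusted p under 0.05 was found for 3 of them (7.14%, against 11.4% of all genes), and DESeq2 and limma-voom called none. The 3 were Nr0b1 (log2 difference 3.66, SE 1.38, edgeR adjusted p = 0.301), Nr3c2 (-1.09, SE 0.46, adjusted p = 0.373) and Esr2, which had 3 reads in double-mutant mTEClo and is given no fold.

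**Figure D4:**
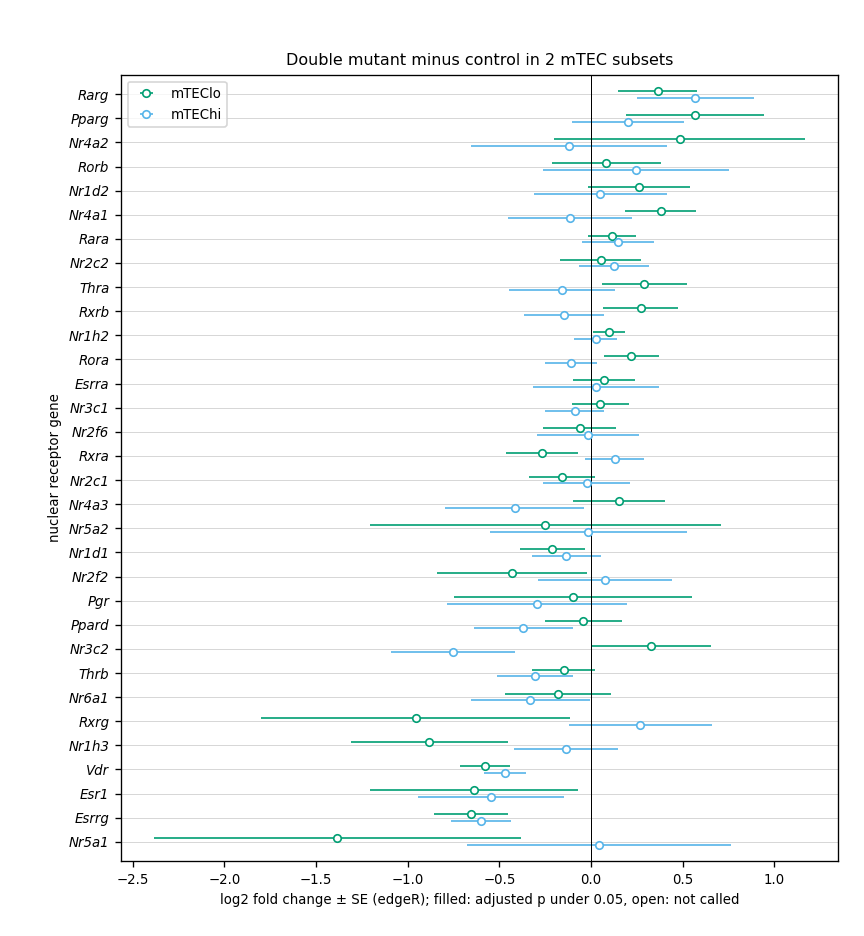
Log2 fold change, double mutant minus control, with its SE, of the 32 receptors tested in both mTEClo and mTEChi. All points are open (not called), and Vdr and Esrrg lie below 0 in both subsets.

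Few genes of the pathway lists were called in the mutants, all of them lower. Fabp1, the liver and gut fatty acid carrier on the PPAR list, was at 3.07 against 27.97 CPM in double-mutant mTEClo (log2 -3.18, edgeR adjusted p = 0.000700), at 2.95 against 27.97 CPM without Hnf4g (log2 -3.24, adjusted p = 0.00499) and at 6.38 against 24.6 CPM in double-mutant mTEChi (log2 -1.94, adjusted p = 0.00310). Abcg5 was at 2.19 against 9.65 CPM in mTEClo (log2 -2.13, edgeR adjusted p = 0.0347) and 14.5 against 33.7 CPM in mTEChi (log2 -1.21, adjusted p = 0.0213). Cyp3a13 was lower in mTEClo at 17.0 against 38.9 CPM (log2 -1.20, edgeR adjusted p = 0.0342). Fgf15, the gut hormone that FXR induces, was lower in mTEChi at 6.92 against 22.7 CPM (log2 -1.70, edgeR adjusted p = 0.0123). Rdh7 had 1 read over the 4 double-mutant mTEClo libraries against 5.13 CPM in the control (edgeR adjusted p = 0.0147).

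Marker lists moved in the same comparisons. In double-mutant mTEClo, enterocyte markers were lower for 6 of 7 (summed 248 to 302 against 551 to 806 CPM), microfold markers for 4 of 8, and tuft markers were higher for 2 of 10 (13170 to 14540 against 9038 to 12270 CPM). The mTEC identity genes had none called, with sums of 6580 to 7030 against 7369 to 10160 CPM. Of these, H2-Ab1 was at 2240 to 2590 against 3044 to 5423 CPM and Foxn1 at 18.7 to 33.7 against 45.7 to 53.3 CPM. Epcam, Krt5, Krt8, Cd80 and Aire overlapped, with Aire at 143 to 228 against 204 to 550 CPM. Proliferation genes had none called (59.7 to 81.7 against 92.7 to 208 CPM), nor had cortical epithelial markers (317 to 397 against 413 to 661 CPM). Hepatocyte markers were lower there for 2 of 5 tested (13.8 to 33.6 against 31.0 to 107.6 CPM). In mTEChi, enterocyte markers were lower for 5 of 7 (348 to 461 against 860 to 1011 CPM), hepatocyte markers for 3 of 6 (115 to 153 against 166 to 225 CPM) and microfold markers for 1 of 8, and 1 of 10 tuft markers was higher. Without Hnf4g, enterocyte markers were lower for 3 of 7 (245 to 353 against 551 to 806 CPM) and microfold markers for 2 of 8 (1956 to 3094 against 3055 to 4307 CPM). The libraries without Hnf4g varied widely in mTEC identity genes (summed 5674 to 10320 CPM) and in H2-Ab1 (1364 to 5126 CPM). Their cortical epithelial markers lay below all controls (202 to 404 against 413 to 661 CPM). Neither of these 2 lists had a call without Hnf4g. Without Hnf4a, none of these lists had a call. The part of these markers in the values of Vdr, Esrrg and Rarg was not tested.

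The last comparison set mTEChi against mTEClo within a genotype. In the control, 9 of 42 tested receptors were higher in mTEChi and 7 were lower, 38.1% against 42.9% of the 20095 genes tested. Higher calls made up 21.4% of the receptors and 22.4% of all genes, and lower calls 16.7% and 20.5%. In the double mutant 10 were higher and 12 lower, 52.4% against 50.8% of all genes (higher 23.8% against 27.7%, lower 28.6% against 23.1%). These shares are close to those of all genes. With upper-quartile scaling the double-mutant split was 13 higher and 9 lower, as the median of all genes moved from 0.06 to 0.21. Pgr, Pparg and Thrb were then called higher, and Rora, Nr3c2 and Nr1d2 were not called. That split is given without the matching shares of all genes. The labels give no sequencing run, but the sample records of all mTEChi libraries form a block apart from those of mTEClo. A run that differed between the subsets therefore cannot be told apart from the subset.

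Vdr had the lowest adjusted p of the receptors higher in mTEChi, in both genotypes. It was at 178 ± 16.1 CPM (SD, n = 4) in control mTEChi against 106 ± 14.6 CPM in control mTEClo (log2 0.77, SE 0.12, edgeR adjusted p = 3.97e-05), and at 128 ± 13.8 against 70.8 ± 7.02 CPM in the double mutant (log2 0.87, SE 0.12, adjusted p = 7.80e-06). Nr1h3 was higher too, at 26.0 against 9.22 CPM in the control (log2 1.51, SE 0.35, edgeR adjusted p = 0.00217, with overlapping libraries) and 23.7 against 5.00 CPM in the double mutant (log2 2.25, adjusted p = 6.27e-05). Both receptors were also higher in the entero-hepato gate. Among the other RXR partners, control mTEChi had higher Pparg (12.8 against 5.72 CPM, log2 1.18, edgeR adjusted p = 0.0145), Thrb (45.5 against 30.2 CPM, log2 0.60, adjusted p = 0.0238, with overlap) and Nr1h4 (46 against 6 reads, log2 2.96, adjusted p = 0.0321). The double mutant had higher Nr1h4 (96 against 10 reads, log2 3.33, edgeR adjusted p = 0.0105) and Ppara (69 against 12 reads, log2 2.43, adjusted p = 0.0327).

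Several scarce receptors had most of their mTEChi and mTEClo reads in mTEChi, within each genotype compared. Nr0b1 had 162 against 15 reads in the control (log2 3.37, SE 0.85, edgeR adjusted p = 0.00403) and 679 against 5 in the double mutant (log2 7.03, SE 0.99, adjusted p = 1.40e-05). Esrrb, known from pluripotent cells and the inner ear, had 130 against 8 reads in the control (log2 3.96, SE 0.76, edgeR adjusted p = 0.000435) and 66 against 11 in the double mutant (log2 2.61, adjusted p = 0.00621). Nr2e3, a photoreceptor gene, had 71 against 4 reads (log2 3.95, edgeR adjusted p = 0.00774) and 90 against 4 (log2 4.25, adjusted p = 0.00373). All 4 mTEClo reads of Nr2e3 came from library 4 in each genotype, and its log2 value ranged from 3.45 to 7.12 in the control and from 3.60 to 7.401 in the double mutant over the alternatives run. These genes are best known from tissues far from the thymus. Pgr, the progesterone receptor, was higher in the control (3.36 against 1.23 CPM, log2 1.45, edgeR adjusted p = 0.0337). In the double mutant, Rxrg (9.57 against 2.23 CPM, log2 2.10, edgeR adjusted p = 0.0197), Nr0b2 (37 against 5 reads, log2 2.75, adjusted p = 0.0470) and Esr2 (95 against 3 reads, adjusted p = 0.000690) were higher. All 5 mTEClo reads of Nr0b2 came from library 2, and its log2 value ranged from 2.32 to 6.19 over the alternatives run.

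On the lower side, Nr4a1 was at 23.4, 56.8, 28.8 and 13.9 CPM in control mTEChi and at 126, 117, 59.4 and 135 CPM in control mTEClo. No mTEChi library reached the mTEClo range, and Nr4a1 fell by 1.84 on the log2 scale (SE 0.31, edgeR adjusted p = 0.000151). In the double mutant it was at 30.04, 22.8, 27.9 and 31.6 CPM against 131, 177, 133 and 131 CPM (log2 -2.33, SE 0.32, edgeR adjusted p = 9.39e-06). Nr4a3 was lower in the double mutant (6.25 against 14.2 CPM, edgeR adjusted p = 0.00479). Stress genes, on a separate list, were lower in control mTEChi for 8 of 12 (summed 1755 to 2589 against 3919 to 4645 CPM), and their part in the NR4A values was not tested.

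Called lower in both genotypes were also Nr1h2, at 81.8 against 116 CPM in the control (log2 -0.49, edgeR adjusted p = 0.000386) and 82.9 against 124 CPM in the double mutant (adjusted p = 6.34e-05), and Rorb, at 2.76 against 10.6 CPM (log2 -1.92, adjusted p = 0.000937) and 3.28 against 11.3 CPM (adjusted p = 0.00125). Rara was at 26.8 against 43.2 CPM (edgeR adjusted p = 0.00337) and 29.6 against 46.8 CPM (adjusted p = 0.00336). Esrra was at 9.68 against 20.8 CPM (edgeR adjusted p = 0.00413) and 9.91 against 21.9 CPM (adjusted p = 0.00222). Rxrb was at 15.2 against 23.2 CPM (edgeR adjusted p = 0.0316, with overlap) and 13.7 against 28 CPM (adjusted p = 0.000759). Nr1h2 and Esrra, higher in the entero-hepato gate, were thus lower in mTEChi. Rxra was called lower in the control (28.1 against 37.7 CPM, edgeR adjusted p = 0.0368), and Thra, Rora, Ppard, Nr3c2 and Nr1d2 in the double mutant, while the difference between genotypes was called for none of the 42. Of the latter 5, Thra was at 7.91 against 16.5 CPM (edgeR adjusted p = 0.00242), Rora at 58.8 against 80.7 CPM (adjusted p = 0.00855), Ppard at 7.78 against 13.2 CPM (adjusted p = 0.0108), Nr3c2 at 4.80 against 9.09 CPM (adjusted p = 0.0290) and Nr1d2 at 16.6 against 29.1 CPM (adjusted p = 0.0416). Abundant receptors that were not called in the control included Esrrg (log2 0.22), Nr1d1 (-0.23), Rora (-0.11) and Nr3c1 (-0.03).

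In every alternative run, 9 of the 16 control calls remained (Vdr, Nr1h3, Esrrb, Nr2e3, Nr4a1, Nr1h2, Rorb, Rara and Esrra), as did 15 of the 22 double-mutant calls (Vdr, Nr1h3, Nr1h4, Nr0b1, Esr2, Esrrb, Nr2e3, Nr4a1, Nr4a3, Nr1h2, Rxrb, Rorb, Esrra, Thra and Rara). In the control, the calls of Nr1h4, Pgr and Rxra were each lost on omission of 5 of the 8 libraries, those of Thrb and Rxrb in 4 and that of Pparg in 2, and Nr0b1 was lost with limma-voom. In the double mutant, the calls of Nr0b2, Ppara and Nr1d2 were each lost on omission of 5 of 8, that of Rxrg in 4 and that of Nr3c2 in 3, while Ppard was lost without the low-count filter and Rora with upper-quartile scaling. Without control mTEClo library 1 the number of receptors higher in control mTEChi went from 9 to 5. It was 6 without control mTEClo library 4 and 6 without control mTEChi library 3.

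**Figure D5:**
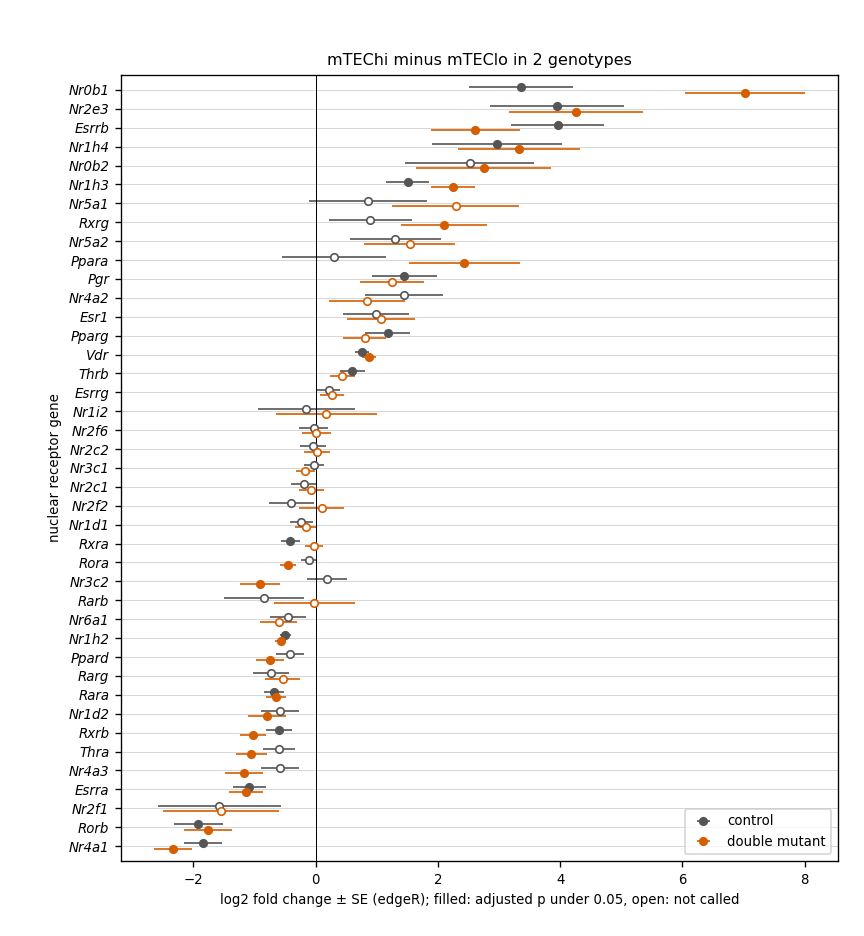
Log2 fold change, mTEChi minus mTEClo, with its SE, of 41 receptors in the control and in the double mutant, filled where called. Vdr and Nr1h3 lie above 0 and Nr4a1, Rorb and Esrra below 0 in both genotypes, all filled.

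Among the linked lists, retinoid genes had 7 higher and 1 lower of 18 in control mTEChi (11 and 1 in the double mutant), with the retinoic acid hydroxylase Cyp26a1 at 205 against 33.9 CPM and Stra6 at 162 against 58.9 CPM. Bile acid genes had 5 of 7 higher and 0 lower (5 and 0), with Fabp6, an ileal bile acid carrier, at 65.6 against 11.4 CPM. Vitamin D targets had 4 of 8 higher and 0 lower (4 and 1), with Calb1, a calcium-binding protein, at 68.8 against 17.2 CPM. PXR and CAR targets had 3 of 9 higher and 0 lower (4 and 0). PPAR targets were mixed, with 5 higher and 3 lower of 18 (8 and 6), as were LXR targets, with 3 and 2 of 10 (2 and 3), where Abcg5 was higher at 33.7 against 9.65 CPM and Abca1, another sterol exporter, lower at 33.8 against 100 CPM.

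Clock genes had 4 higher and 2 lower of 15 in the control (3 and 6 in the double mutant), with Npas2 at 59.8 against 21.4 CPM. Glucocorticoid targets had 4 higher and 2 lower of 9 (3 and 2), with Fkbp5 at 58.7 against 34.3 CPM, and thyroid hormone targets had 2 higher and 1 lower of 4 (2 and 1), with Dio1 at 331 against 188 CPM. Most receptor cofactors were not called: coactivators had 1 higher and 4 lower of 12 (1 and 5), with Ncoa1 at 28.7 against 64.1 CPM, and corepressors had 0 higher and 2 lower of 9 (0 and 3).

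Cell type markers differed between these subsets as well. In control mTEChi against mTEClo, tuft markers were lower for 10 of 10 (454 to 749 against 9038 to 12270 CPM), keratinocyte markers for 5 of 5, and cortical epithelial markers were higher for 5 of 7 (1320 to 1414 against 413 to 661 CPM). Proliferation genes were higher for 7 of 8 (462 to 579 against 92.7 to 208 CPM), myeloid markers for 10 of 11 (1723 to 2264 against 489 to 808 CPM) and fibroblast markers for 5 of 8 (669 to 749 against 134 to 255 CPM). Enterocyte markers were higher for 4 of 7 and lower for 1 (860 to 1011 against 551 to 806 CPM). Hepatocyte markers were higher for 3 of 6 and lower for 1 (166 to 225 against 31.0 to 107.6 CPM). Microfold markers were lower for 3 of 8 and higher for 0, and thymocyte markers were higher for 7 of 10 and lower for 1. The part of all these markers in the receptor differences was not tested.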

How the data were processed

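The authors deposited 1 table of read counts per gene symbol for 28 libraries. Alignment used STAR 2.7.3a, counting used featureCounts and the build was mm10, per the submitters' processing notes. Per the labels' protocols, cDNA was primed with oligo(dT), cut with Tn5 and amplified over 18 PCR cycles, and paired reads of 38 bases were sequenced. No molecular identifiers are named, so duplicate reads count separately. From these counts, edgeR 4.0.16 (R 4.3.3) fitted 4 quasi-likelihood models for 8 comparisons (6 wild-type, 14 mTEClo, 8 mTEChi libraries, and 16 for the subsets), with TMM factors, filterByExpr (minimum count 10, minimum total 15) and Benjamini-Hochberg adjustment over all genes tested. Exon lengths and positions came from GENCODE M21 on GRCm38 and promoter windows from RefSeq. Alternatives used DESeq2 1.42.0, limma-voom 3.58.1, other scalings and filters, and each library left out in turn. The edgeR fits were tested on simulated counts for the wild-type gates and for the double mutant against control in mTEClo and in mTEChi. The single-gene genotypes, the subset comparisons and the difference between subsets were not tested in this way. Libraries were grouped by title, and replicate pairs within every group differed beyond counting noise, so none was merged. The members and gene lists were chosen with earlier results of these data known. Every called receptor is named, with up to 5 of the most abundant uncalled ones, and up to 3 genes per linked list.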

Additional observations from a re-analysis of the deposited data

Results flagged for a closer look

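Single libraries stood apart from the rest of their group for 3 of 148 combinations of receptor and group tested by Dixon's criterion, where chance gives about 1 in 20. Rarg was at 20.1 CPM in control mTEClo library 2, with the other 3 between 12.8 and 13.9 CPM. Nr1h2 was at 111.4 CPM in double-mutant mTEClo library 4, with the others between 127.6 and 130.0 CPM. Nr4a1 was at 176.8 CPM in double-mutant mTEClo library 2, with the others between 130.9 and 132.7 CPM.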

How the results depend on the processing

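Leaving out each library in turn gave 17 to 19 called receptors between the wild-type gates, 0 in every Hnf4 comparison, 11 to 15 between subsets in the control and 18 to 24 in the double mutant. The matching shares of all genes are not set beside these counts. Where edgeR called none in double-mutant mTEClo, DESeq2 called 1, no filter 2 and only the groups compared 1. Leaving out mTEClo library 1 of the control, Hnf4g-removed and Hnf4a-removed groups gave 2. Those libraries were chosen after seeing the data, and no double-mutant library was left out. Without Hnf4g, DESeq2 and no filter called 1 each. In double-mutant mTEChi, DESeq2 called 3 and no filter 2. The cause was not tested. Over all genes, the 139 calls in double-mutant mTEClo became 456 with DESeq2, 967 without a filter and 295 with only the groups compared. The 117 in mTEChi became 439 with DESeq2 and 619 without a filter, the 18 without Hnf4g became 143 and 482, and the 1 without Hnf4a became 8 and 212 (0 with only the groups compared). The 12 calls on the difference between subsets became 360 with DESeq2, 321 without a filter, 4 with limma-voom and 1 with the replicate block.

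Libraries were treated as unpaired, as the lowest correlation of same-numbered libraries was under a cut of 0.1 for every 2 groups compared. Between the wild-type gates the correlations were 0.021 to 0.054, and each library correlated best with its own number. They reached 0.309 between control and Hnf4g-removed mTEClo and 0.118 between control and Hnf4a-removed mTEClo. Whether the gates shared mice cannot be told from these values. With the replicate number as a block, 18 receptors were called between the gates, 0 in the Hnf4 comparisons, 15 between subsets in the control and 21 in the double mutant.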
